A study of Mus musculus with 24 samples.

Results

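Collagen is crosslinked outside the cell by lysyl oxidases and prepared for it inside the cell by lysyl hydroxylases and chaperones, and the 9 mouse genes for these proteins are described here. They are the lysyl oxidases Lox, Loxl1, Loxl2, Loxl3 and Loxl4, the lysyl hydroxylases Plod1, Plod2 and Plod3, and the collagen chaperone Serpinh1. They were chosen by symbol, as both whole enzyme families and the chaperone. The first sequencing batch held all 9 among 55471 listed genes, and the second batch held 7 of them, under the same Ensembl identifiers, among 13915 listed genes. Loxl2 was chosen with its position on a chromosome already seen to be lower in these cells, so its values are a description and were not tested.

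The cells were EO771, a mouse mammary carcinoma line from a spontaneous tumour of C57BL/6 mice, in 4 derivatives that were all made by retroviral transduction with pLNCX2 vectors and cell sorting. X2 was the vector control. CCR7 expressed introduced mouse Ccr7, the gene of a chemokine receptor, and its libraries are those of the PDPN-negative sort. CCR7-PDPN and X2-PDPN were the cells of each kind that had turned on the glycoprotein podoplanin (PDPN) spontaneously and were sorted for it. The first batch held X2, CCR7 and CCR7-PDPN and the second X2, X2-PDPN and CCR7-PDPN, with 4 libraries per derivative in each batch and 24 in all. The protocol states that no clones were picked, whereas the series design calls the derivatives subclones, so a difference between derivatives cannot be told apart from one between clones. The 4 libraries are technical replicates of 1 derivative, so their spread and every p-value leave out the variation between independent transductions or sorts. An introduced gene and the population that carries it cannot be told apart by this design.

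In fibrillar collagen, lysyl hydroxylases (PLOD proteins) add a hydroxyl group to chosen lysines in the endoplasmic reticulum, where the chaperone HSP47, the product of Serpinh1, holds the folded triple helix until it is exported. PLOD2 hydroxylates the telopeptides, PLOD1 the helix, and PLOD3 adds glycosyl groups as well. After secretion, the copper-dependent lysyl oxidases (LOX and LOXL1 to LOXL4) turn lysines and hydroxylysines into aldehydes that join neighbouring molecules. In mammary tumours these enzymes are known for stiffening the matrix around the cells.

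The libraries held 22275468 to 33395418 counts in the first batch and 22788542 to 35721027 in the second. Ccr7 stood at 2800 ± 66.7 and 3030 ± 145 CPM (read counts scaled by library size and TMM factors; mean ± SD, n = 4) in CCR7 and CCR7-PDPN of the first batch and 3178 ± 184 in CCR7-PDPN of the second, against 0.341 to 0.661 in the X2 and X2-PDPN groups. Pdpn stood at 24.6 to 25.6 CPM in the PDPN-sorted groups, 0.413 in CCR7 and 0.0618 to 0.161 in X2, so both genes followed the labels. The second table lists 2 of the epithelial, 1 of the immune, 4 of the fibroblast and 3 of the endothelial markers looked up, so the sums over them cover fewer genes there. Of 12 mammary epithelial markers only Krt8 reached 1 TPM (counts scaled by gene length and library total), and Epcam, Cdh1, Krt18, Krt14 and Krt5 did not pass the filter on low counts in the first batch. The epithelial sum, Krt8 almost alone, was 415 to 447 TPM in X2, 442 to 518 in CCR7, 507 to 542 in X2-PDPN and 533 to 576 in CCR7-PDPN. Only 2 epithelial markers were tested, Krt8 and Grhl2, and they went in opposite directions. In every comparison of a PDPN-sorted group, edgeR called Krt8 higher and Grhl2, which was under 1 TPM, lower. Grhl2 fell past a log2 fold change of -1 in CCR7-PDPN against CCR7 and against X2 of both batches. The summed immune markers were Cd68 almost alone, from 131 to 156 TPM in X2, 42.2 to 57.6 in CCR7, 56.9 to 69.2 in X2-PDPN and 22.5 to 32.1 in CCR7-PDPN, while Ptprc, Cd3e, Itgam, Adgre1 and Csf1r did not pass the filter in the first batch. The summed fibroblast markers ranged from 94.8 to 124 TPM in the first batch, with Lum and Thy1 at 0, and from 97.8 to 115 TPM in the second, and the endothelial markers did not exceed 1.41 TPM. The part of the Krt8, Grhl2 and Cd68 differences in the results was not tested. CCR7 replicate 1 stood apart from the other libraries: over all genes its chi-square per degree of freedom against the other CCR7 libraries was 13.5 to 22.8, beside at most 8.52 in every other pair of replicates. Without it, the genes called in CCR7-PDPN against CCR7 went from 2766 higher and 2747 lower to 3279 and 3261, and the calls of 2 members changed: Loxl3 in CCR7 against X2 was lost and Plod3 in CCR7-PDPN against CCR7 was gained. In bulk samples, fewer cells of a type and less RNA per cell cannot be told apart.

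Per unit of length, the chaperone was far above the enzymes, Plod3 led the hydroxylases and Loxl4 led the oxidases. Serpinh1 stood at 1488 to 1778 TPM over the 6 group means, Plod3 at 102 to 139, Plod2 at 45.6 to 66.9, Plod1 at 40.7 to 61.3, Loxl4 at 44.3 to 49.6 and Loxl3 at 4.55 to 7.71. Loxl2 stood at 26.7 to 30.9 TPM where Ccr7 had not been introduced and at 0.0480 to 0.0918 where it had. Lox had no read in any of the 12 libraries of the first batch, which allows up to 0.0246 to 0.0267 CPM per group (3 counts over the group's 4 libraries, counting error only). Loxl1 had 2, 1, 3 and 6 reads in the 4 X2 libraries and 1 read in each library of CCR7 and CCR7-PDPN. Both were too low for a test in the first batch. Neither is listed in the second, which holds only genes with at least 10 counts in some library, so neither has counts there. The remaining 7 genes passed the filter in both batches, with a spread between replicate libraries of 0.803% to 14.4% of the mean in groups above 1 CPM, the highest in Loxl3.

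**Figure D1:**
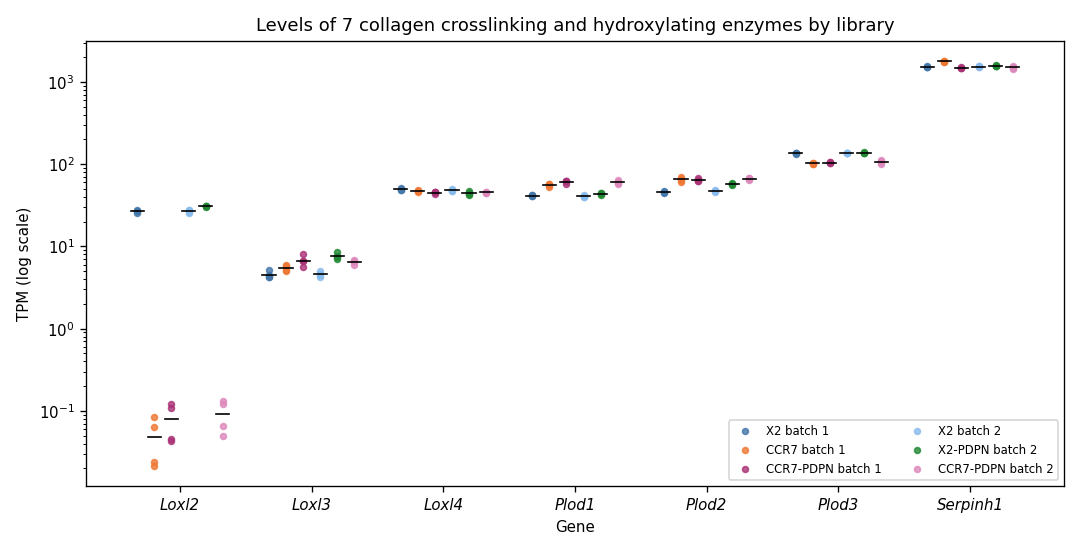
Level of the 7 measured enzymes and chaperone in each library, in TPM on a log scale, with the 6 groups in colour and a black line at each group mean (n = 4). Loxl2 falls from 26.7 to 30.9 TPM in the X2 and X2-PDPN groups to under 0.1 TPM on average in the 3 groups with Ccr7, while the group means of Loxl3, at 4.55 to 7.71 TPM, lie within a much narrower range.

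Loxl2 had the widest range of the oxidases. Its product crosslinks collagen IV and fibrillar collagens. The gene lies on chromosome 14 (GRCm38, 69609068 to 69695834, forward strand). In the first batch the 4 X2 libraries held 1116, 936, 1259 and 1089 Loxl2 reads, the CCR7 libraries 1, 1, 4 and 2, and the CCR7-PDPN libraries 2, 5, 5 and 2. In the second batch the X2 libraries held 1086, 1070, 1211 and 1124 reads, the X2-PDPN libraries 1371, 1619, 1313 and 1190, and the CCR7-PDPN libraries 4, 6, 3 and 2. Every library with introduced Ccr7 was thus far below every library without it, in both batches, and the few reads that remained did not separate CCR7 from CCR7-PDPN.

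Over summed counts, X2 exceeded CCR7 570-fold (95% exact counting interval 289 to 1322) in Loxl2. X2 exceeded CCR7-PDPN 341-fold (203 to 624) in the first batch and 295-fold (179 to 528) in the second. X2-PDPN exceeded CCR7-PDPN 338-fold (205 to 605). Between cells alike in Ccr7, the ratio of CCR7-PDPN to CCR7 was 1.67 (0.656 to 4.61) and that of X2-PDPN to X2 was 1.15 (1.10 to 1.19), with 44.6 ± 0.626 CPM in X2-PDPN and 38.7 ± 1.41 in X2. The intervals cover counting error only.

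The genes around Loxl2 were lower too, but by much less. Of the 54 tested genes that start within 5 Mb of Loxl2, 52 were below 0 in CCR7 against X2, with a median log2 fold change of -0.44, while the median of all genes tested was 0.0033. The same 52 of 54 count was found in CCR7-PDPN against X2 in the first batch (median -0.46), in CCR7-PDPN against X2-PDPN (median -0.51) and in CCR7-PDPN against X2 in the second batch (median -0.46). In X2-PDPN against X2 the median was 0.027 and 26 of 54 were below 0. Over all tested genes of chromosome 14 the median was -0.45 in CCR7 against X2 and -0.038 in X2-PDPN against X2. R3hcc1 and Slc25a37, the nearest tested genes on either side, had log2 fold changes of -0.44 and -0.69 in CCR7 against X2. The lowest neighbour was Scara5, at -2.15 in that comparison and -5.40 in CCR7-PDPN against X2-PDPN. Loxl2 itself had -9.05, which left -8.61 once the neighbours' median was subtracted. These neighbours are described without a test, since the chromosome was part of the choice.

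**Figure D2:**
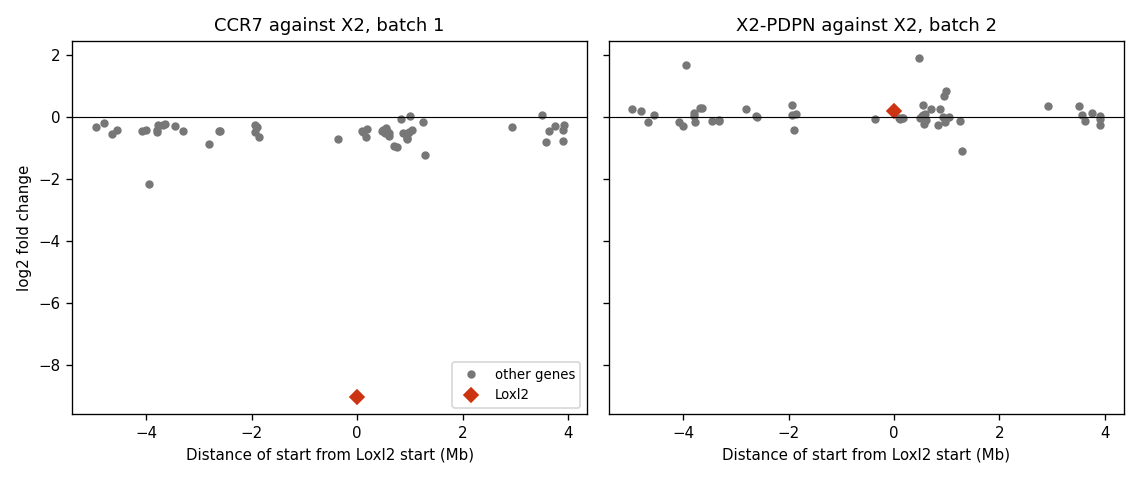
log2 fold change of the tested genes within 5 Mb of Loxl2 (grey) and of Loxl2 (red), by distance of the gene start in Mb, for CCR7 against X2 (left) and X2-PDPN against X2 (right). On the left 52 of 54 neighbours lie below 0 with a median of -0.44 and Loxl2 lies at -9.05, and on the right the median is 0.027 and Loxl2 lies at 0.20.

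Loxl3, an oxidase with scavenger receptor domains that is expressed at a low level here, rose in every PDPN-sorted group against its PDPN-negative counterpart. The gene lies on chromosome 6 (83034173 to 83052562, forward strand). In the first batch its CPM was 5.21, 5.52, 6.37 and 5.28 in X2, 7.37, 6.24, 7.04 and 6.31 in CCR7, and 8.26, 10.00, 7.04 and 8.40 in CCR7-PDPN. Its CPM in the second batch was 5.78, 6.22, 5.19 and 5.60 in X2, 9.08, 9.52, 10.5 and 8.79 in X2-PDPN, and 8.27, 7.43, 8.44 and 8.14 in CCR7-PDPN. The lowest CPM of X2-PDPN was above the highest of both other groups of its batch, whereas CCR7 overlapped both its neighbours in level.

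The rise of Loxl3 from X2 to X2-PDPN was 0.74 ± 0.081 on the log2 scale (± SE throughout; edgeR adjusted p = 1.684e-10), and from CCR7 to CCR7-PDPN it was 0.32 ± 0.099 (edgeR adjusted p = 0.0130). Without the second CCR7-PDPN library the latter was 0.23 and no longer passed the test (edgeR adjusted p = 0.0758). CCR7-PDPN was lower than X2-PDPN by a log2 fold change of -0.23 ± 0.077 (edgeR adjusted p = 0.00767). CCR7 was higher than X2 by 0.27 ± 0.11 (edgeR adjusted p = 0.0372), a call that was lost when X2 replicate 1, 2 or 4 or CCR7 replicate 1 or 3 was left out (edgeR adjusted p = 0.0688 to 0.108). Loxl3 overlaps Htra2 on the opposite strand, and Htra2, with up to 3451 reads in a library, had log2 fold changes of -0.14 in CCR7 against X2 and -0.12 in X2-PDPN against X2.

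Loxl4, the most abundant oxidase in every group, varied least of the 7 genes, with group means within 0.18 on the log2 scale. The gene lies on chromosome 19 (42593982 to 42612813, reverse strand). Its CPM was 55.9 ± 1.16 in X2, 53.1 ± 1.44 in CCR7 and 51.8 ± 1.34 in CCR7-PDPN of the first batch, while in the second X2 had 54.4 ± 1.20, X2-PDPN 49.8 ± 2.43 and CCR7-PDPN 51.9 ± 1.15. Small falls passed the test in X2-PDPN against X2 (-0.13 ± 0.037, edgeR adjusted p = 0.00309) and in CCR7-PDPN against X2 of the first batch (-0.11 ± 0.036, edgeR adjusted p = 0.0116), but not of the second (-0.068 ± 0.038, 95% interval -0.14 to 0.0059, edgeR adjusted p = 0.111). CCR7 against X2 gave -0.072 with a 95% interval of -0.14 to -0.0015 (edgeR adjusted p = 0.105). The unadjusted edgeR p of this last difference was 0.0586, so its interval leaves out 0 although the test was not passed before adjustment either. Intervals of log2 fold changes use SE and a normal quantile without the degrees of freedom of the F test, which makes them too narrow. They are also not adjusted for the number of genes, whereas the adjusted p-values are.

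With Loxl2 nearly absent, the oxidase transcripts of the cells with introduced Ccr7 were mostly Loxl4. Summed over Loxl2, Loxl3 and Loxl4, the family stood at 81.0 ± 1.90 TPM in X2, 52.9 ± 1.15 in CCR7 and 52.1 ± 1.87 in CCR7-PDPN of the first batch. The X2 libraries of the second batch had 79.5 ± 1.90, those of X2-PDPN 82.9 ± 2.57 and those of CCR7-PDPN 51.9 ± 0.922. Loxl2 made up 33.1% ± 0.492 of that sum in X2 and 37.3% ± 0.836 in X2-PDPN, against 0.0912% ± 0.0578 in CCR7. Loxl4 made up 61.3% in X2 and 89.5% in CCR7 of the first batch, and 53.4% in X2-PDPN and 87.4% in CCR7-PDPN of the second. These shares follow from Loxl2 and are not a separate result.

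The 3 lysyl hydroxylases moved apart from each other where Ccr7 had been introduced: Plod1 and Plod2 rose and Plod3 fell. The windows around the starts of Plod1 and Plod3, which went in opposite directions, and of Serpinh1 are shown because they are the stretches from which these transcripts begin. They are RefSeq reference sequence of build GRCm38.p6, from 250 bases before to 50 after the start, written 5′ to 3′ on the gene's strand, for Plod1 at chr4:147936727-147937026 (reverse strand), Plod3 at chr5:136986769-136987068 (forward strand) and Serpinh1 at chr7:99353190-99353489 (reverse strand). Capitals mark matches to ACGTG or its reverse complement CACGT, a form of the core of the hypoxia response element, and to GAANNTTC or TTCNNGAA, pairs of heat shock element units. The core also takes the form GCGTG, which was neither searched nor marked.
Plod1: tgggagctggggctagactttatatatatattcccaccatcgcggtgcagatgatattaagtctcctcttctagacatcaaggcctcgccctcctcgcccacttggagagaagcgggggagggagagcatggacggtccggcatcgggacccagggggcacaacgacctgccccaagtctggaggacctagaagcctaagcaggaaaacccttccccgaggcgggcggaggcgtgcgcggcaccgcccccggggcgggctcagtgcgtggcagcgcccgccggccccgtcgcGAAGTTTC
Plod3: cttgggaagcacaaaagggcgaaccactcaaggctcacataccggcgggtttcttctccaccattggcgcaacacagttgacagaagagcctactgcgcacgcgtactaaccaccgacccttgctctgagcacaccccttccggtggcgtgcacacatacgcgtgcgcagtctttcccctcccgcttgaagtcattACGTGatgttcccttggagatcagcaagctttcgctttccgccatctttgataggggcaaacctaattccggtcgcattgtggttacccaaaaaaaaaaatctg
Serpinh1: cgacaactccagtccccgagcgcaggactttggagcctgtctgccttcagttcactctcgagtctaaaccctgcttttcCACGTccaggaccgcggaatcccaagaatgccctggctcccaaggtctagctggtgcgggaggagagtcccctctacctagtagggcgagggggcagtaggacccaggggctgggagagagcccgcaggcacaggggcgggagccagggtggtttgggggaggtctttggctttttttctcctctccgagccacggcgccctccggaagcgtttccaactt

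The Plod3 window holds ACGTG from position -54 and the Serpinh1 window CACGT from position -171, counted back from -1 at the base before the start. The Plod1 window holds GAANNTTC from position 43, counted from 1 at the first transcribed base. The Loxl4 window of the same length (chr19:42612757-42613056, reverse strand) holds neither of the searched motifs. Of 32851 RefSeq windows of this length, 19.6% hold ACGTG or CACGT and 15.1% hold GAANNTTC or TTCNNGAA, searched on both strands, so these matches are common and describe letters only.

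Plod1, on chromosome 4 (147909753 to 147936767, reverse strand), hydroxylates lysines of the collagen helix and rose with introduced Ccr7 and, by less, with PDPN. In the first batch its CPM was 74.7, 74.5, 75.5 and 75.8 in X2, 95.3, 103.7, 101.2 and 102.0 in CCR7, and 114.9, 113.3, 115.3 and 106.4 in CCR7-PDPN. Its CPM in the second batch was 74.8, 72.0, 72.4 and 76.1 in X2, 80.6, 80.5, 77.2 and 77.7 in X2-PDPN, and 118.3, 109.6, 110.7 and 106.2 in CCR7-PDPN. No neighbouring groups overlapped, and the order was the same within each batch, with X2 lowest and CCR7-PDPN highest.

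CCR7 exceeded X2 in Plod1 by 0.42 ± 0.035 on the log2 scale (1.34-fold, edgeR adjusted p = 2.077e-09), and CCR7-PDPN exceeded X2-PDPN by 0.49 ± 0.033 (1.41-fold, edgeR adjusted p = 2.755e-17). These comparisons share no library. The differences with PDPN were smaller, 0.16 ± 0.035 in CCR7-PDPN against CCR7 (edgeR adjusted p = 0.000769) and 0.098 ± 0.034 in X2-PDPN against X2 (edgeR adjusted p = 0.0118). The tested genes within 5 Mb of Plod1 had medians from -0.041 to 0.046 over the 6 comparisons.

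Plod2, on chromosome 9 (92542223 to 92608428, forward strand), hydroxylates the collagen telopeptides and is known as a gene that hypoxia raises. In the first batch its CPM was 64.2, 67.1, 65.3 and 66.1 in X2, 89.1, 101.0, 93.3 and 95.0 in CCR7, and 100.1, 94.5, 91.8 and 92.9 in CCR7-PDPN. In the second batch it was 70.9, 65.7, 67.2 and 69.4 in X2, 85.8, 82.0, 80.9 and 82.3 in X2-PDPN, and 95.8, 97.9, 98.8 and 99.9 in CCR7-PDPN. X2 was below all other groups, X2-PDPN lay between X2 and CCR7-PDPN without overlap, and CCR7 and CCR7-PDPN overlapped.

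Plod2 rose by 0.53 ± 0.039 in CCR7 against X2 (1.44-fold, edgeR adjusted p = 3.004e-10) and by 0.25 ± 0.032 in CCR7-PDPN against X2-PDPN (1.19-fold, edgeR adjusted p = 6.224e-09). With PDPN it rose by 0.28 ± 0.033 in X2-PDPN against X2 (1.21-fold, edgeR adjusted p = 8.169e-10), and CCR7-PDPN against CCR7 gave 0.0039 ± 0.038 (95% interval -0.072 to 0.079, edgeR adjusted p = 0.949). Its neighbours on chromosome 9 moved too. The 34 to 36 tested genes within 5 Mb had a median of 0.40 in CCR7 against X2, 0.23 in X2-PDPN against X2 and -0.0034 in CCR7-PDPN against X2-PDPN. With those medians subtracted, Plod2 was left with 0.12, 0.046 and 0.25, and their part in the result was not tested. The chromosome 9 median over 707 genes was 0.33 in CCR7 against X2.

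Plod3, on chromosome 5 (136987019 to 136996648, forward strand), is the hydroxylase that also glycosylates hydroxylysine and was the most abundant of the 3. In the first batch its CPM was 164.6, 164.4, 165.5 and 160.1 in X2, 126.0, 122.6, 122.1 and 122.5 in CCR7, and 129.5, 129.8, 128.0 and 127.5 in CCR7-PDPN. In the second batch it was 167.1, 163.5, 165.8 and 168.7 in X2, 167.2, 168.7, 162.6 and 170.5 in X2-PDPN, and 140.1, 130.5, 133.2 and 124.3 in CCR7-PDPN. All libraries with introduced Ccr7 lay below all libraries without it, and X2 and X2-PDPN overlapped.

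Plod3 fell by 0.41 ± 0.028 in CCR7 against X2 (0.753-fold, edgeR adjusted p = 8.330e-11) and by 0.34 ± 0.030 in CCR7-PDPN against X2-PDPN (0.789-fold, edgeR adjusted p = 1.317e-13). X2-PDPN against X2 gave 0.0083 ± 0.029 (95% interval -0.049 to 0.066, edgeR adjusted p = 0.833), and CCR7-PDPN against CCR7 gave 0.062 ± 0.028 (95% interval 0.0063 to 0.12, edgeR adjusted p = 0.0862). Without CCR7 replicate 1, the library at 126.0 CPM, the latter was 0.072 and passed the test (edgeR adjusted p = 0.0382). The median of the 123 tested neighbours of Plod3 in CCR7 against X2 was 0.0042. Znhit1 overlaps Plod3 on the opposite strand and had log2 fold changes of 0.070 in CCR7 against X2 and 0.30 in CCR7-PDPN against X2-PDPN. In CCR7-PDPN against X2, where Plod3 fell too, Znhit1 had 0.26 in the first batch and 0.36 in the second.

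The sum over the 3 hydroxylases changed less than its make-up. It stood at 223 ± 2.69 TPM in X2, 224 ± 5.16 in CCR7 and 231 ± 6.36 in CCR7-PDPN of the first batch, and at 225 ± 3.10, 240 ± 2.12 and 235 ± 7.10 in X2, X2-PDPN and CCR7-PDPN of the second. Plod3 made up 60.9% ± 0.514 of the sum in X2, 45.7% ± 1.41 in CCR7 and 45.4% ± 0.614 in CCR7-PDPN of the first batch. Its share in the second batch was 61.0% ± 0.435 for X2, 57.8% ± 0.601 for X2-PDPN and 45.8% ± 0.922 for CCR7-PDPN. Over both batches, the highest share in a library with introduced Ccr7 was 47.7% and the lowest in a library without it was 57.1%. The share of Plod2 went from 20.5% in X2 to 29.4% in CCR7, and that of Plod1 from 18.7% to 24.9%.

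**Figure D3:**
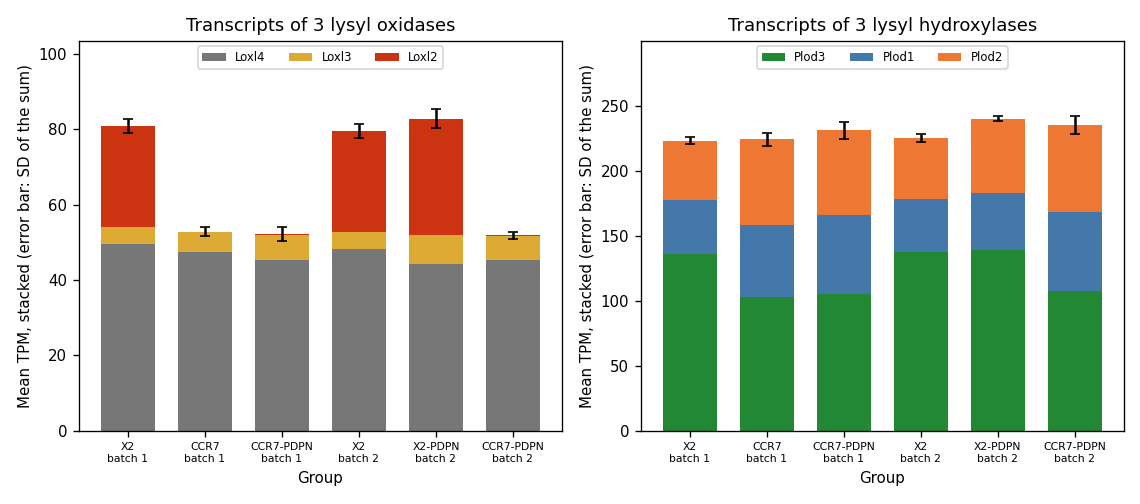
Mean TPM of the 3 measurable lysyl oxidases (left) and the 3 lysyl hydroxylases (right), stacked per group (n = 4), with the SD of the sum as an error bar. The oxidase sum falls from 79.5 to 82.9 TPM without introduced Ccr7 to 51.9 to 52.9 TPM with it as Loxl2 disappears, while the hydroxylase sum stays between 223 and 240 TPM as the Plod3 part shrinks.

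Serpinh1, on chromosome 7 (99345376 to 99353239, reverse strand), encodes the chaperone HSP47. In the first batch its CPM was 1013, 996, 986 and 994 in X2, 1137, 1176, 1177 and 1141 in CCR7, and 990.4, 987, 968 and 1002 in CCR7-PDPN. In the second batch it was 1018, 1007, 985 and 1016 in X2, 1054, 1018, 1006 and 1024 in X2-PDPN, and 1053, 1001, 981 and 973 in CCR7-PDPN. The CCR7 libraries stood above all others of their batch, and the other groups overlapped.

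Serpinh1 rose by 0.22 ± 0.025 in CCR7 against X2 (1.16-fold, edgeR adjusted p = 2.261e-07), and CCR7-PDPN was lower than CCR7 by a log2 fold change of -0.23 ± 0.025 (0.852-fold, edgeR adjusted p = 2.323e-07). CCR7-PDPN against X2 gave -0.015 ± 0.025 in the first batch (95% interval -0.063 to 0.033) and -0.0069 ± 0.026 in the second (-0.057 to 0.043), and neither passed the test (edgeR adjusted p = 0.612 and 0.827). X2-PDPN against X2 gave 0.027 ± 0.026 (-0.023 to 0.077, edgeR adjusted p = 0.389).

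Counted over Loxl3, Loxl4, Plod1, Plod2, Plod3 and Serpinh1, the 6 genes that could be tested, the members called at an adjusted p under 0.05 are best read against how many of all genes were called. In CCR7 against X2, 4 of 6 were higher and 1 lower, while 24% of 13261 genes were called higher and 25.2% lower. In CCR7-PDPN against X2-PDPN, 2 were higher and 2 lower (31.2% and 32.0% of 13314 genes). In X2-PDPN against X2, 3 were higher and 1 lower (28.2% and 28.5%), and in CCR7-PDPN against CCR7, 2 were higher and 1 lower (20.9% and 20.7%). In CCR7-PDPN against X2, 3 were higher and 2 lower in the first batch (30.3% and 30.6%) and 3 higher and 1 lower in the second (32.0% and 32.8%). None of the 6 passed, in addition, an absolute log2 fold change of 1, by edgeR or by DESeq2, a rule met by 6.48% of all genes in CCR7 against X2, 3.27% in CCR7-PDPN against CCR7, 5.05% in X2-PDPN against X2, 9.16% in CCR7-PDPN against X2-PDPN, and 9.45% and 9.63% in CCR7-PDPN against X2 of the first and second batch. With 6 genes, such counts do not set the members apart from the rest.

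**Figure D4:**
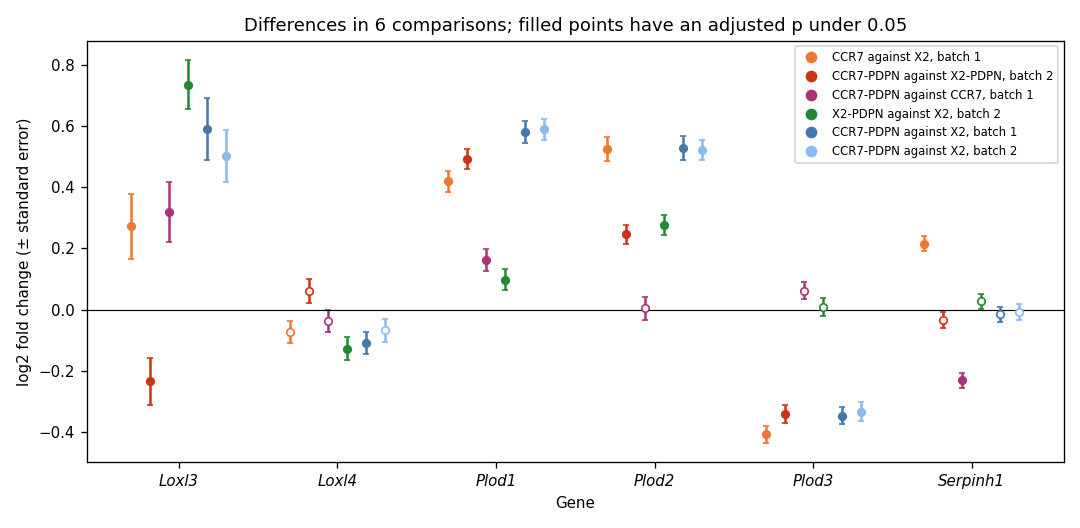
log2 fold change ± SE of the 6 tested members in the 6 comparisons (edgeR). Filled points passed an adjusted p of 0.05: Plod1 lies above 0 in all 6, Plod3 lies between -0.41 and -0.33 in the 4 comparisons of cells with and without introduced Ccr7, and the points of Loxl3 lie on both sides of 0.

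CCR7-PDPN and X2 were sequenced in both batches, and their difference came out close to the same. Plod1 had 0.58 in the first batch and 0.59 in the second, Plod2 0.53 and 0.52 (0.14 and 0.17 with the neighbours' median subtracted), Plod3 -0.35 and -0.33, and Loxl3 0.59 and 0.50. The batches differed by at most 0.088 among the 6 tested members (SE of that difference 0.13, in Loxl3). Loxl2 had -8.33 and -8.13, from 14 and 15 CCR7-PDPN reads. The batches hold sequencing repeats of the same derivatives, not new ones.

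The PDPN difference with introduced Ccr7 (CCR7-PDPN against CCR7, first batch) was compared with that without it (X2-PDPN against X2, second batch) in 1 fit over 24 libraries and 13690 genes. It was lower with Ccr7 in 3 of the 6 members and higher in 0 by edgeR (0 also by DESeq2 and at an unadjusted p under 0.05), while 20.5% of all genes were lower and 20.3% higher. The PDPN difference with Ccr7 minus that without it was -0.41 ± 0.13 in Loxl3 (0.32 against 0.74, edgeR adjusted p = 0.00879), -0.27 ± 0.050 in Plod2 (0.0039 against 0.28, edgeR adjusted p = 3.161e-05) and -0.25 ± 0.035 in Serpinh1 (-0.23 against 0.027, edgeR adjusted p = 2.323e-07). The 37 tested genes within 5 Mb of Plod2 had a median of -0.18 here. With the neighbours' median subtracted, Loxl3 was left with -0.40, Plod2 with -0.094 and Serpinh1 with -0.18, and the neighbours' part was not tested. Plod1 gave 0.068 ± 0.048, Plod3 0.057 ± 0.041 and Loxl4 0.094 ± 0.051, which did not pass the test (edgeR adjusted p = 0.277, 0.282 and 0.140). This test sets cells of the first batch against cells of the second, so batch and introduced Ccr7 are only separated as far as a batch acts alike on all groups.

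The other genes that modify or process collagen moved in both directions, as the tested genes as a whole did. Of 29 listed genes for prolyl hydroxylation, chaperoning, export and propeptide cleavage, 22 passed the filter in the first batch and 23 in the second. In CCR7 against X2, 7 of 22 were higher and 6 lower, with a median log2 fold change of -0.012, beside 0.0033 over all genes. Over all genes, 24% were called higher and 25.2% lower in that comparison. The shares for the other comparisons are those given with the 6 members, and the list counts were not tested against them. In CCR7-PDPN against X2-PDPN, 8 of 23 were higher and 12 lower (median -0.088, all genes 0.00014), in X2-PDPN against X2, 11 higher and 8 lower (0.079, all genes 0.0012), and in CCR7-PDPN against CCR7, 3 of 22 higher and 6 lower (-0.032, all genes -0.0033). CCR7-PDPN against X2 had 6 of 22 higher and 9 lower in the first batch and 8 of 23 higher and 10 lower in the second.

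Crtap, a partner of the prolyl 3-hydroxylases that modify the collagen helix, rose in CCR7 against X2 by 0.86 ± 0.040 (77.9 ± 2.32 against 43.0 ± 0.949 CPM, edgeR adjusted p = 8.664e-14) and in X2-PDPN against X2 by 0.49 ± 0.038 (edgeR adjusted p = 6.135e-15). Crtap lies on chromosome 9, whose median was 0.33 in CCR7 against X2. Sparc, a collagen-binding matricellular protein, rose by 0.58 ± 0.024 in CCR7 against X2 (1097 ± 18.8 against 736 ± 6.51 CPM, edgeR adjusted p = 1.759e-14). Bmp1, the protease that removes procollagen C-propeptides and activates lysyl oxidase, lies 865 kb from Loxl2 on chromosome 14, stood at 186 ± 11.3 CPM in CCR7 against 266 ± 7.17 in X2, and is given like the other neighbours of Loxl2 without a test, although the counts over the list hold it. P3h3, a prolyl 3-hydroxylase family member that works with PLOD1, had -0.35 ± 0.055 in CCR7 against X2 and -0.68 ± 0.053 in CCR7-PDPN against X2-PDPN (edgeR adjusted p = 1.474e-05 and 4.353e-15), the reverse of Plod1 in these comparisons. In X2-PDPN against X2, P3h3 rose by 0.35 ± 0.051 (edgeR adjusted p = 1.083e-07), the same direction as Plod1. P3h4, another partner of PLOD1, rose by 0.21 ± 0.052 in CCR7-PDPN against CCR7 (edgeR adjusted p = 0.00303). Pcolce2, an enhancer of propeptide cleavage, rose by 0.91 ± 0.038 in X2-PDPN against X2 (62.3 ± 2.53 against 33.2 ± 0.327 CPM, edgeR adjusted p = 3.696e-24). Pcolce2 lies on chromosome 9 within 5 Mb of Plod2, where the median was 0.23 in that comparison. Mia2, a cargo receptor of the secretory pathway, was higher by 0.45 ± 0.027 in CCR7-PDPN than in X2-PDPN (edgeR adjusted p = 3.814e-19). P4hb, the beta subunit of prolyl 4-hydroxylase, had -0.37 ± 0.025 in CCR7-PDPN against X2 of the second batch (edgeR adjusted p = 3.142e-17).

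Smaller falls with PDPN were found in Pcolce (-0.22 ± 0.031) and Tgm2 (-0.19 ± 0.033), a transglutaminase, in CCR7-PDPN against CCR7. In X2-PDPN against X2, Adamts14, an N-propeptidase, had -0.36 ± 0.035 and Colgalt1, a collagen galactosyltransferase, -0.22 ± 0.026. Fkbp14, a prolyl isomerase that acts on collagen and was picked out after its values were seen, had 121 reads over the 4 X2 libraries of the first batch, 6 over CCR7 and 0 over CCR7-PDPN, and 109, 127 and 0 over X2, X2-PDPN and CCR7-PDPN of the second. X2 was thus 20.9-fold above CCR7 (95% counting interval 9.34 to 58.1) and at least 43.7-fold above CCR7-PDPN of its batch, with 3 counts over the group as the floor. X2-PDPN was at least 39.1-fold above CCR7-PDPN. P4ha3, a low prolyl 4-hydroxylase subunit picked out in the same way, had 84 reads in X2-PDPN and 4 in CCR7-PDPN, a ratio of 19.4 (7.30 to 72.8). Adamts3, another N-propeptidase picked out after its values were seen, had -1.10 ± 0.36 in that comparison (57 against 24 reads, edgeR adjusted p = 0.00686).

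The substrates looked up were fibrillar and type IV collagens and elastic fibre genes only. Collagens outside this list, such as Col6a2, are not in its counts. Of 18 listed collagen and elastic fibre genes only 9 passed the filter, and Eln, Fbn1, Fbln5 and Col1a2 did not, with 0 to 2 Col1a2 reads in a library of the first batch. In CCR7 against X2, 5 of 9 were higher and 3 lower (median 0.19), in X2-PDPN against X2, 6 higher and 1 lower (0.32), in CCR7-PDPN against CCR7, 3 higher and 0 lower (0.069), and in CCR7-PDPN against X2-PDPN, 2 higher and 4 lower (-0.11). CCR7-PDPN against X2 had 5 higher and 1 lower in each batch. The shares of all genes called, given with the 6 members, are the background of these counts too, which were not tested against them. For the 0 lower by edgeR in CCR7-PDPN against CCR7, DESeq2 gave 0 too, and 0 were lower at an unadjusted p under 0.05.

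Col3a1, which forms fibrils with collagen I, rose by 1.97 ± 0.073 in CCR7 against X2 (19.7 ± 1.09 against 4.99 ± 0.435 CPM, edgeR adjusted p = 2.404e-15) and by 2.54 ± 0.064 in X2-PDPN against X2 (28.3 ± 1.37 against 4.85 ± 0.374 CPM, edgeR adjusted p = 5.952e-32). Col1a1, the main chain of collagen I, rose by 1.37 ± 0.12 in X2-PDPN against X2 and was lower by a log2 fold change of -1.66 ± 0.13 in CCR7-PDPN against X2-PDPN, at 1.71 to 5.39 CPM (edgeR adjusted p = 5.145e-13 and 3.852e-15). Col4a1, a basement membrane chain, had -0.43 ± 0.032 in CCR7 against X2 and -0.62 ± 0.027 in CCR7-PDPN against X2-PDPN (edgeR adjusted p = 2.843e-10 and 4.204e-24). Col4a2, the other type IV chain of the list, was picked out after its values were seen. It was called higher in CCR7 against X2 and lower in CCR7-PDPN against X2-PDPN. Col11a2, a minor fibril chain, rose by 0.82 ± 0.19 and 1.38 ± 0.11 in the same comparisons (edgeR adjusted p = 0.00211 and 2.705e-14), at 2.34 to 6.64 CPM. Col5a3 was higher by 0.72 ± 0.031 in CCR7-PDPN than in X2-PDPN (edgeR adjusted p = 2.523e-24), and Col2a1, a cartilage collagen, had -0.45 ± 0.14 in CCR7 against X2 (edgeR adjusted p = 0.0206), a call lost without CCR7 replicate 3 or 4.

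Among 930 genes that varied by at least 1 on the log2 scale, the genes most like Loxl2, Loxl3 and Plod1, the members with the widest range, were found by Pearson's r of log2 CPM over the 24 libraries after the X2 mean of each batch was subtracted. These r values describe libraries that share derivatives and carry no p. For Loxl2 they included Atp11a (r = 0.996) and Tfdp1 (0.994), whose mean log2 CPM in CCR7 minus that in X2 was -0.910 and -0.996, far smaller than the difference in Loxl2. Atp11a and Tfdp1 lie near each other on chromosome 8, with starts at 12757014 and 13338751. For Loxl3 they were Gm7967 (0.912), Col6a2 (0.912) and Lpin1 (0.909), with Col6a2 1.69 higher in X2-PDPN than in X2. For Plod1 they were Phlpp2 (0.986), Tldc1 (0.983) and Trim2 (0.981), with Trim2 1.52 higher in CCR7 than in X2 and 0.15 higher in X2-PDPN. Phlpp2 and Tldc1 both lie on chromosome 8, with starts at 109868542 and 119760076, and Trim2 lies on chromosome 3. The part of position on a chromosome in these likenesses was not tested.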

How the data were processed

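Poly(A) RNA of EO771 derivatives was sequenced by the authors with a stranded kit in single-end mode (75 bases) and mapped to GRCm38/mm10; the aligner, its version and the strand setting of the counting are not given in the sources used here. The authors deposited whole-number counts per Ensembl gene in a table per batch, with gene lengths in bases, not normalised. The second table lists only genes with at least 10 counts in some library. The 9 members and the gene lists were chosen with earlier results of these data known.

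Counts were tested with edgeR 4.0.16 (R 4.3.3): TMM factors, filterByExpr, a robust quasi-likelihood fit over the 3 groups of a batch, and Benjamini-Hochberg adjustment over 13261 genes in the first batch, 13314 in the second and 13690 in the fit over both. SE was the absolute log2 fold change divided by the square root of F. TPM was computed from the counts and lengths. Differences are called at an adjusted p under 0.05, and a log2 fold change of 1 is the second threshold. The study used the Python version of DESeq2; the R package (1.42.0) was run here as an alternative. Named genes are all members, Ccr7, Pdpn and, per comparison and collagen list, up to 2 higher and 2 lower called genes of largest change whose mean log2 CPM reached 1; others are marked as picked after their values were seen, and some items are not reported here. Of symbols with several identifiers, the one with most counts was used. No 2 replicates agreed within sampling noise (36 pairs, chi-square per degree of freedom 2.07 to 22.8, the 3 highest all with CCR7 replicate 1), so none were merged. The fits were tested on simulated data. Alternatives were other size factors, no filter, DESeq2, a replicate block, 2 groups or 24 libraries per fit, each library left out, the neighbours' median subtracted, a 2 Mb window and TPM over the genes of both tables.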

Additional observations from a re-analysis of the deposited data

Results flagged for a closer look

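The PDPN difference with introduced Ccr7 minus that without it passed the test (edgeR, over 24 libraries) in 3 members, Loxl3 (-0.41 on the log2 scale), Plod2 (-0.27) and Serpinh1 (-0.25). With the neighbours' median subtracted, these members were left with -0.40, -0.094 and -0.18. Other named collagen genes are given without that subtraction. Among the other named collagen genes it was negative in Col1a1 (-1.44), Col3a1 (-2.14), Col4a1 (-0.21), Crtap (-0.36), P3h3 (-0.42), Pcolce2 (-0.94) and Sparc (-0.24). It was positive in Adamts14 (0.19), Col11a2 (0.55, edgeR adjusted p = 0.04999, a call lost with RLE factors, with the replicate block and in 11 of 16 fits without 1 library), Col5a3 (0.45), Colgalt1 (0.19) and Mia2 (0.26). Cells with and without Ccr7 come from different batches here.

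Single libraries stood apart from the other 3 of their group in 5 of 165 groups tested, and chance alone gives about 1 in 20. These were the highest CCR7 library in Plod3 (126.0 CPM, the others 122.1 to 122.6), the lowest X2 library of the first batch in Col4a1 (717 CPM), the lowest CCR7-PDPN library of the first batch in Col5a3 (130.1 CPM), and the highest X2 library of the first batch in P3h4 (32.0 CPM) and in Sparc (745 CPM).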

How the results depend on the processing

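The member counts at an adjusted p under 0.05 stayed within 1.5 times of their values under other size factors, no filter, DESeq2, the replicate block, 2 groups only and 24 libraries in 1 fit. With 1 library left out, members higher ranged from 1 to 3 in CCR7-PDPN against CCR7 (1 without CCR7-PDPN replicate 2) and from 0 to 1 in the test of the PDPN difference (1, Loxl4, without X2-PDPN replicate 1). Loxl3 in CCR7 against X2 ranged from 0.23 to 0.35. Plod2 in CCR7-PDPN against CCR7, near 0, had -0.000599 with 2 groups only and -0.025 to 0.037 with a library left out, Plod3 in X2-PDPN against X2 ranged from -0.0012 to 0.021 and Serpinh1 in CCR7-PDPN against X2 of the second batch from -0.033 to 0.0060. Among other collagen genes that did not pass the test, leaving out a library gave ranges across 0 in CCR7 against X2 for Adamts14 (-0.014 to 0.022), in CCR7-PDPN against CCR7 for Pcolce2 (-0.059 to 0.0069), in X2-PDPN against X2 for Col11a2 (-0.15 to 0.069) and Col2a1 (-0.13 to 0.074), and in the test of the PDPN difference for Tgm2 (-0.029 to 0.0077). Col2a1 in CCR7-PDPN against CCR7 ranged from -0.0058 to 0.32 and passed without CCR7 replicate 1. With the neighbours' median subtracted, 4 member values that had not passed the test changed sign: Plod3 in CCR7-PDPN against CCR7 (0.062 to -0.0091) and in X2-PDPN against X2 (0.0083 to -0.031), and Serpinh1 in X2-PDPN against X2 (0.027 to -0.072) and in CCR7-PDPN against X2-PDPN (-0.034 to 0.050). Substrates lower in CCR7-PDPN against X2 were 1 in each batch, but 3 without the filter, 2 with DESeq2 and 2 with 2 groups only in the first, and 2 with the replicate block and 2 with 2 groups only in the second. All genes lower past the fold threshold went from 422 to 658 in CCR7 against X2 and from 711 to 1176 in CCR7-PDPN against X2 of the first batch without the filter, where more genes are tested. The cause of the other changes was not tested.

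Replicate numbers did not pair the libraries: same-numbered libraries of different groups had correlations of -0.12 to 0.106 over 24 pairs, and 6 libraries correlated best with their own number. With the replicate block, Loxl3 in CCR7 against X2 had 0.27 with an edgeR adjusted p of 0.0586 (0.0372 without the block), members higher there went from 4 to 3, and no other member call changed. Counts over whole gene lists were not recomputed with a library left out. Depth limits Lox, Loxl1 and, with introduced Ccr7, Loxl2.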

Other observations

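Of 22 genes listed for the response to hypoxia, a known inducer of Plod2 and Loxl2, all passed the filter in both batches. In CCR7 against X2, 11 were higher and 2 lower (median log2 fold change 0.077, all genes 0.0033), and in X2-PDPN against X2, 7 were higher and 7 lower (-0.011, all genes 0.0012). In CCR7-PDPN against CCR7, 7 were higher and 4 lower, and in CCR7-PDPN against X2-PDPN, 9 were higher and 8 lower. CCR7-PDPN against X2 had 10 higher and 4 lower in the first batch and 9 higher and 7 lower in the second. Of all genes, 24% were called higher and 25.2% lower in CCR7 against X2. The shares were 28.2% and 28.5% in X2-PDPN against X2, 20.9% and 20.7% in CCR7-PDPN against CCR7, and 31.2% and 32.0% in CCR7-PDPN against X2-PDPN. For CCR7-PDPN against X2 they were 30.3% and 30.6% in the first batch and 32.0% and 32.8% in the second. The hypoxia counts were not tested against the shares of all genes. Car9, a carbonic anhydrase picked out after its values were seen, was the 1 gene of the list past a log2 fold change of 1, in X2-PDPN against X2 (2.14 ± 0.11, 9.10 ± 1.14 against 2.06 ± 0.263 CPM, edgeR adjusted p = 3.183e-20) and in CCR7-PDPN against X2 (1.47 ± 0.12 and 1.48 ± 0.12 in the 2 batches).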
